A study of Mus musculus with 6 samples.

Results

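Glycogen metabolism was described through 9 genes measured in mouse hearts: Gys1, Gyg, Gbe1, Pygm, Pygb, Phka1, Phkg1, Ppp1r3c and Ugp2. The members were chosen by name, as genes that make glycogen, break it down or control either step, and all probe sets annotated with 1 of these symbols alone were taken. They had 19 probe sets, of 34945 probe sets with a single symbol, which cover 18193 genes. Left ventricles of wild-type (WT) and Glut1-TG mice were compared, with 3 arrays in each group. Glut1-TG mice carry a transgene for the human glucose transporter Glut1 under the promoter of alpha-myosin heavy chain, which is active in cardiomyocytes. WT mice serve as controls, although the series text calls both groups transgenic. The mice were FVB males aged 11 to 12 weeks and fed standard chow, and the hearts were freeze-clamped. The labels number the replicates without stating that each is a separate animal, so p-values measure only the spread between these 6 arrays, which may be technical in part. Arrays are called hearts below for brevity. In whole tissue, fewer cells of a type and less RNA per cell cannot be told apart.

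Glycogen is the branched glucose polymer that heart muscle keeps as a local fuel store. Glucose that enters the cell is phosphorylated, turned into glucose 1-phosphate and joined to UDP by the product of Ugp2. Glycogenin primes the chain, glycogen synthase lengthens it and the branching enzyme adds branch points. Glycogen phosphorylase releases glucose 1-phosphate again and is switched on by phosphorylase kinase, while protein phosphatase 1, brought to the particle by targeting subunits such as that of Ppp1r3c, acts in the opposite direction. The activity of these enzymes is set largely by phosphorylation and by glucose 6-phosphate, which an expression array does not read.

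No member passed the test. Signals are linear intensities, and where a gene had several probe sets the one with the highest mean log2 signal stood for it. A log2 fold change is that of Glut1-TG against WT. By limma with Benjamini-Hochberg adjustment over 12421 genes, 0 of the 9 members had an adjusted p under 0.05, where 0.934% of all genes tested did (35 or 0.282% higher and 81 or 0.652% lower in Glut1-TG hearts, and 69 and 31 after centring on cardiomyocyte markers). At an unadjusted limma p under 0.05, 3 of 9 were past, against 11.6% of all genes. Ugp2 and Gys1 were lower, as 6.05% of all genes were, and Gbe1 was higher, as 5.60% were. This split depended on the scaling. After centring on cardiomyocyte markers 3 members were past and higher (Gbe1, Ppp1r3c and Pygb) and 0 lower, where 16.1% of all genes were past and higher and 1.42% lower. After quantile normalization Gbe1 and Pygb were past and higher and Ugp2 lower, against 5.93% and 5.60% of all genes. The thresholds of the study join a minimum fold to an unadjusted p. They were applied here with the methods' t-test (unpaired), as the paper names no test for the array. In this form 0 of 9 passed, against 5.91% of all genes. It called 335 genes lower and 399 higher, fewer in each direction than the paper lists, so the count of members is not the study's own. With the probe sets of a gene averaged, 2 of 9 passed (Gys1 and Ugp2, lower). Taken singly, 4 probe sets passed the thresholds, all lower, 3 of Ugp2 and 1 of Gys1. The share of all probe sets, or of all genes with averaged probe sets, was not counted, so neither count is read as a result. The groups did not overlap in 2 of 9 members, both lower in Glut1-TG hearts, where 17.8% of all genes did not (9.08% lower and 8.72% higher). The median log2 fold change was -0.05 for the members and 0.01 for all genes tested, and 5 of the 9 were below 0 (3 after quantile normalization or centring on cardiomyocyte markers), against 47.6% of all genes.

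**Figure D1:**
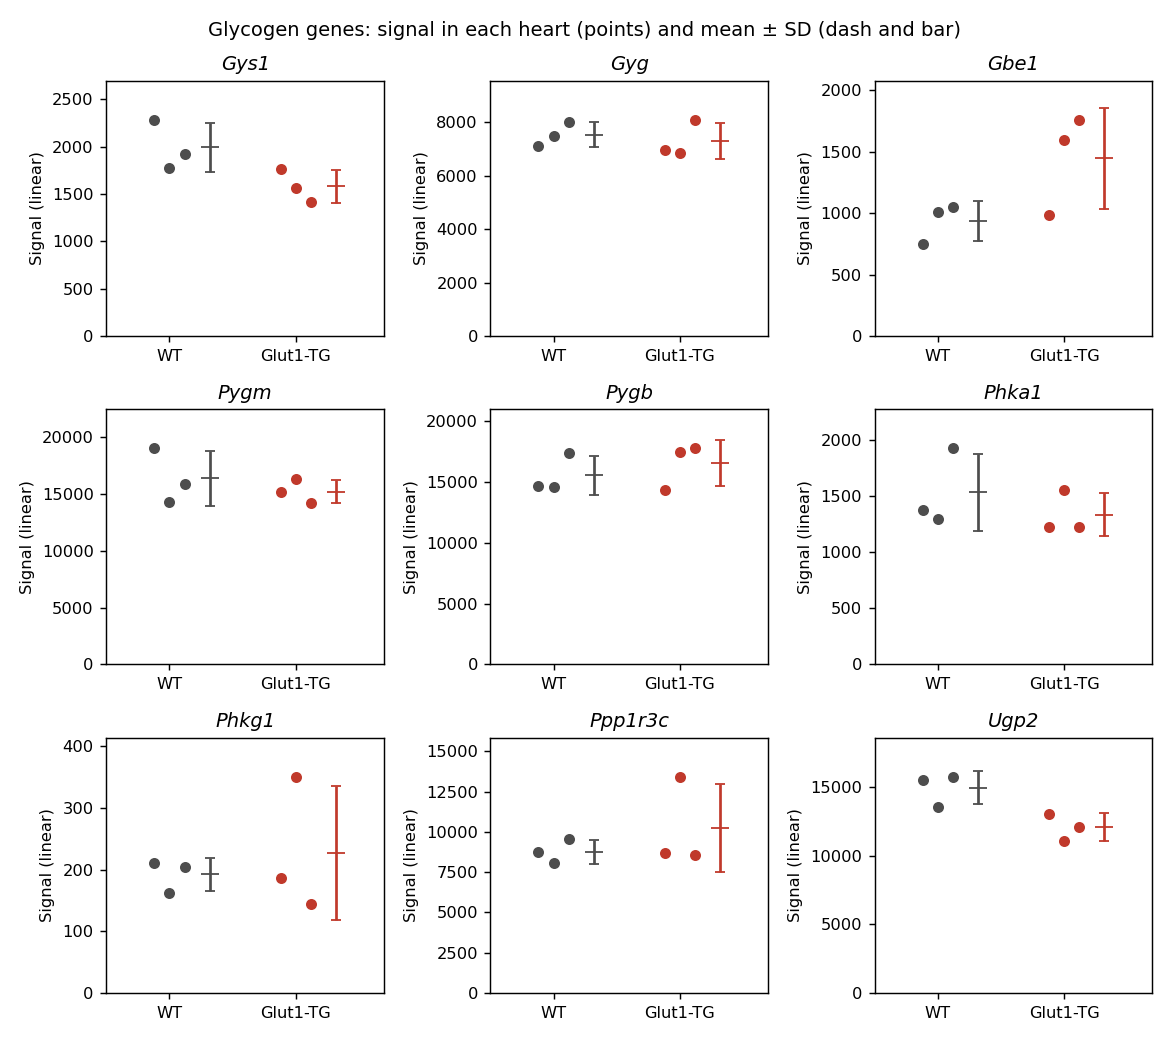
Signal (vertical axis, linear scale from 0) of the 9 glycogen genes in each of 3 WT and 3 Glut1-TG hearts, as points, with mean ± SD beside them. The groups do not overlap in Gys1 and Ugp2; in Gbe1, Glut1-TG replicate 1 lies among the WT hearts, and in Phkg1 and Ppp1r3c a single Glut1-TG heart stands high.

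The 6 arrays had the same trimmed mean signal (500), and the median signal was highest in Glut1-TG replicate 1. This array stood apart: its log2 signals correlated across genes at 0.932 to 0.940 with those of the other arrays, whose own pairs were at 0.957 to 0.971. The defining cardiomyocyte markers Tnni3, Tnnt2, Myh6 and Mybpc3 had signals from 26737 to 57823 in every array. The 14 cardiomyocyte markers summed to 515221 to 615552 in WT and 481255 to 512241 in Glut1-TG hearts, without overlap. All 14 had a log2 fold change below 0 (median -0.18), and 0 passed limma while 5 had an unadjusted p under 0.05. Of 4 atrial markers 2 were tested, and Myl4 was higher and passed limma (log2 fold change 1.75, adjusted p = 0.0083) while Nppa had -0.07 (adjusted p = 0.93). Under the filter, Myl7 was at 14.2 to 90.5 in WT and 315 to 713 in Glut1-TG hearts, and Sln at 114 to 117 and 39.4 to 65.3, in the opposite direction. By limma 0 markers of smooth muscle, fibroblasts, endothelium, macrophages, skeletal muscle, red blood cells, fat or glia passed. Myh4 of skeletal muscle (28.5 to 121) and Adipoq of fat (8.30 to 139) lay under the filter's signal of 142 in every array, and no defining marker was listed at 0. Of 8 skeletal muscle markers 2 were tested, Acta1 (24525 to 31878) and Ckm (31653 to 46639), with log2 fold changes of 0.26 and -0.24. Of the 3 fat markers on the array 1 was tested, Fabp4 (29412 to 37785). The glia markers Gfap (303 to 696) and Mbp (244 to 466) were above 142 in every array. The mouse Slc2a1 probe sets, which need not read a human transgene, disagreed: 2 were lower in all Glut1-TG hearts, one of them past limma (log2 fold change -2.30, adjusted p = 0.020 among all probe sets), and 1 was higher (0.69, adjusted p = 0.13).

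Ugp2, the UDP-glucose pyrophosphorylase that makes the activated glucose unit for glycogen synthase, had the lowest p among the members. Its signals were 15562, 13585 and 15769 in WT replicates 1 to 3 and 13093, 11106 and 12106 in Glut1-TG replicates 1 to 3. The highest Glut1-TG heart lay just under the lowest WT heart. The means were 14972 ± 1205 (SD, n = 3) and 12102 ± 994 (SD, n = 3), 19.2% lower with the transgene. This log2 fold change of -0.31 (SE 0.09, 95% confidence interval -0.52 to -0.10) did not pass limma (adjusted p = 0.24). An exact two-sided permutation test of the 6 arrays, which have 20 groupings, gave p = 0.1, and no smaller p is possible here.

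All 5 probe sets of Ugp2 had their Glut1-TG arrays below their WT arrays, where 8.79% of the 20967 probe sets tested did. The probe sets, numbered 1 to 5 in the order of their identifiers, read transcripts of the same gene and are not independent; the values above are those of probe set 5. Their log2 fold changes ran from -0.51 to -0.23, and none passed limma over all probe sets (adjusted p = 0.13 to 0.47). Probe set 3 had the largest difference, from 12631, 11191 and 14059 in WT to 8737, 7660 and 10377 in Glut1-TG hearts. Probe set 2 had the narrowest spread, with 4619, 4563 and 4362 in WT and 3697, 3317 and 3507 in Glut1-TG hearts (-0.37 on the log2 scale, SE 0.08). In probe set 4 the closest arrays were 10531 in WT replicate 1 and 10142 in Glut1-TG replicate 2. With the mean of the probe sets in place of the highest, the log2 fold change was -0.36 (limma adjusted p = 0.13).

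**Figure D2:**
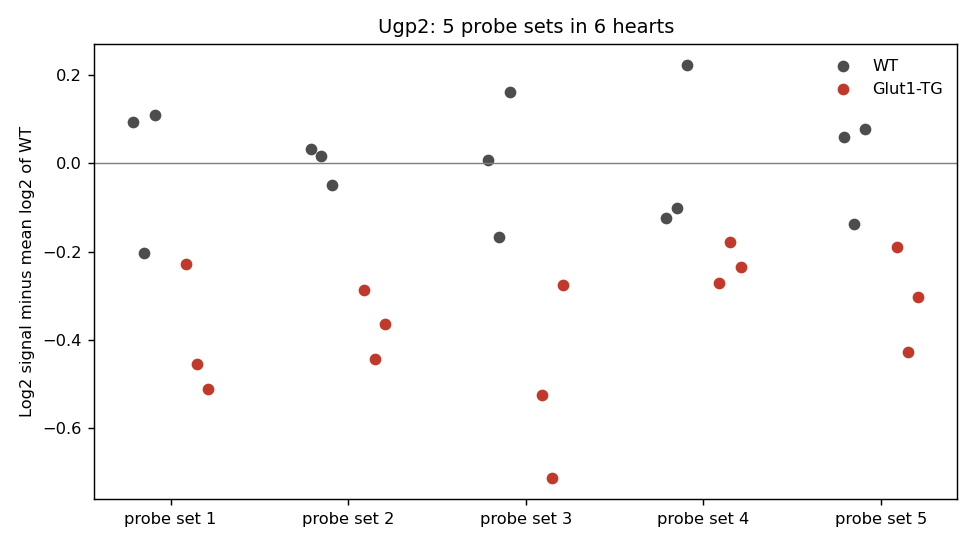
Log2 signal of the 5 probe sets of Ugp2 in each heart, minus the mean log2 signal of the 3 WT hearts (vertical axis), as 1 point per heart. Every Glut1-TG point lies below every WT point of the same probe set, by a wide gap in probe set 2 and by a narrow one in probe sets 1, 4 and 5.

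Gys1, the muscle isoform of glycogen synthase, was lower in Glut1-TG hearts by a similar amount. Its signals were 2283, 1774 and 1923 in WT and 1767, 1563 and 1416 in Glut1-TG hearts. The groups nearly touched, at WT replicate 2 and Glut1-TG replicate 1. The means were 1993 ± 262 and 1582 ± 176 (SD, n = 3 each), which is -0.33 on the log2 scale (SE 0.13, 95% confidence interval -0.61 to -0.05, limma adjusted p = 0.36). The second probe set had 955, 790 and 820 in WT and 592, 730 and 571 in Glut1-TG hearts, or -0.44 on the log2 scale (limma adjusted p = 0.34 among all probe sets). Both probe sets separated the groups without passing the test.

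The cardiomyocyte markers, summed, were also lower in every Glut1-TG heart, and their part in the differences of Ugp2 and Gys1 was not tested. After each array was centred on these markers, Ugp2 had a log2 fold change of -0.12 (limma adjusted p = 0.42) and Gys1 of -0.15 (0.56). The same centring raised the log2 fold change of every gene by 0.18. The distance of both genes from the median of all genes was thus fixed in advance and says nothing about the part of the markers. After quantile normalization Ugp2 had -0.21 (limma adjusted p = 0.39) and Gys1 -0.30 (0.44).

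Gbe1, the branching enzyme, had the largest fold change of the members and a single probe set. Its signals were 753, 1009 and 1048 in WT and 981, 1599 and 1759 in Glut1-TG hearts. Glut1-TG replicate 1 lay between the WT hearts, and the other two Glut1-TG hearts lay above all of them. Its log2 fold change of 0.60 (SE 0.22, 95% confidence interval 0.11 to 1.09) did not pass limma (adjusted p = 0.34, from 0.056 to 0.60 over the alternatives). Without Glut1-TG replicate 1 it was 0.86 (limma adjusted p = 0.056), and without Glut1-TG replicate 3 it was 0.43 (limma adjusted p = 0.46). The exact permutation test gave p = 0.3 (two-sided).

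**Figure D3:**
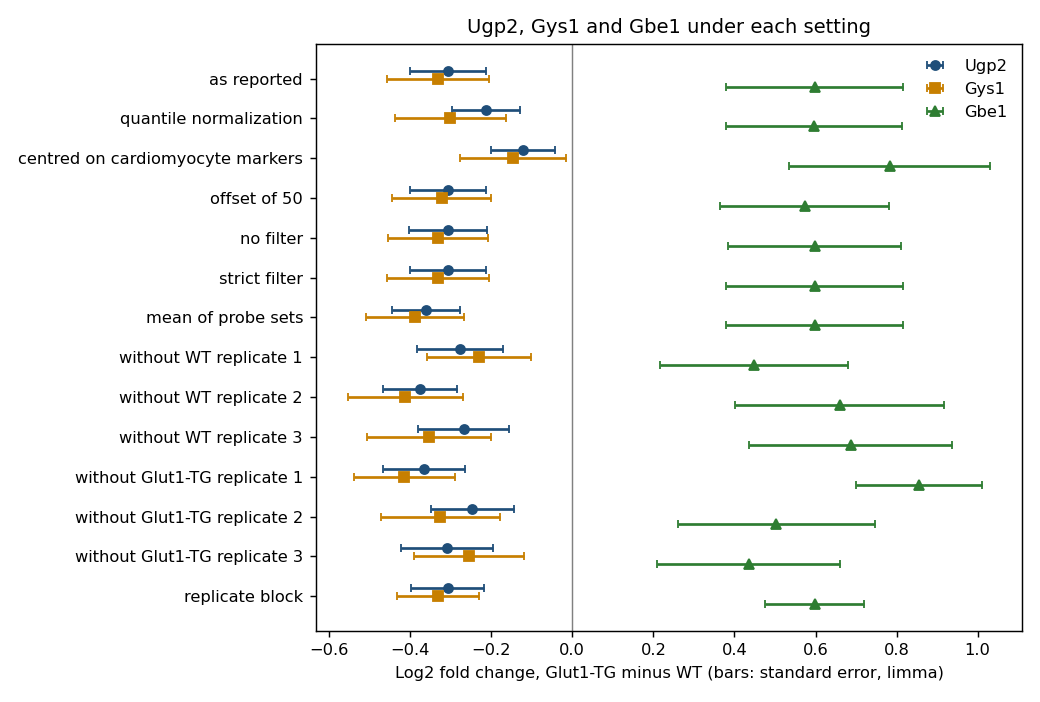
The horizontal axis gives the log2 fold change, Glut1-TG against WT, of Ugp2, Gys1 and Gbe1, with bars of 1 standard error by limma. Rows are the values as reported and the alternatives with adjustment, except no intensity trend in eBayes and the methods' t-test. The rows for other filters and the replicate block keep the reported log2 fold changes and differ only in their bars. Ugp2 and Gys1 stay below 0 and Gbe1 above 0 in all rows shown; centring on the cardiomyocyte markers brings Ugp2 and Gys1 closest to 0.

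The 250 bases before the annotated start of these 3 genes are shown because they had the lowest p among the members, 2 lower and 1 higher. The sequences are those of RefSeq (GRCm38.p6), in which all 9 members were matched with 10 start sites, and Ugp2 has 2 of them. Capitals mark 4 motifs, or their reverse complements, searched on both strands: the E-box CACGTG, the core TGACG of the cyclic AMP response element, the CACCC box and the GC box GGGCGG. The last 2 resemble the sites that Krüppel-like factors bind, and the GC box does not overlap another motif in these windows.
Ugp2 start 1, chr11:21371268-21371517 (- strand): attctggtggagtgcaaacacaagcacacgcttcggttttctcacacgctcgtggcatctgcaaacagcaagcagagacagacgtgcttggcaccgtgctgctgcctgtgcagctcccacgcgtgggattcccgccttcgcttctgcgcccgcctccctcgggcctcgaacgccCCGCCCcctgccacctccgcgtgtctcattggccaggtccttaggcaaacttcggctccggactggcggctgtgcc
Ugp2 start 2, chr11:21370630-21370879 (- strand): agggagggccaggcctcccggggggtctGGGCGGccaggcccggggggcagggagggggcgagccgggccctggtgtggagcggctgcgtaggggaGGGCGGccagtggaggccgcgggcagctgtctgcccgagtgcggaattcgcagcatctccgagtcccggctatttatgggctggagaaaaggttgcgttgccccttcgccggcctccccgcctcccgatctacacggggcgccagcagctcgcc
Gys1, chr7:45434589-45434838 (+ strand): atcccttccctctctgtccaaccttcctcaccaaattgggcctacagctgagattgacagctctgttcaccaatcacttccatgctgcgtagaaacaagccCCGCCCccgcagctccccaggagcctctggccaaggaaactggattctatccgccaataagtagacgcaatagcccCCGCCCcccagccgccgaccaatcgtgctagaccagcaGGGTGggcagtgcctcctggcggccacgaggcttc
Gbe1, chr16:70313699-70313948 (+ strand): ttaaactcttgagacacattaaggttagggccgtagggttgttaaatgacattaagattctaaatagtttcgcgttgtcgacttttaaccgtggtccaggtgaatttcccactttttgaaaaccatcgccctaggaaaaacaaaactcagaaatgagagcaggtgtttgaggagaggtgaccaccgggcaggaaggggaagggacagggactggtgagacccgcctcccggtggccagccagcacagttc
The GC box was found 1 and 2 times before the starts of Ugp2 and 2 times before Gys1, where a CACCC box also stands as its reverse complement. Gbe1 held none of the 4 motifs. Of 32851 windows of this length in the table, 32.7% held a GC box, 52.0% a CACCC box, 17.8% the TGACG core and 6.02% the E-box. Among the 10 windows of the members, 5 held a GC box, 4 a CACCC box, 1 the TGACG core (Pygb) and 1 the E-box (Ppp1r3c). A match of letters is a description of the window and not a bound site.

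Gyg, glycogenin, the protein that primes a new glycogen chain, showed no separation. Its signals were 7101, 7463 and 8016 in WT and 6954, 6849 and 8082 in Glut1-TG hearts. The groups overlapped, and its log2 fold change of -0.05 (95% confidence interval -0.25 to 0.16, limma adjusted p = 0.88) turned to above 0 after quantile normalization or centring on cardiomyocyte markers. As a fold the interval is 0.839 to 1.12. The other probe set had -0.03.

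Glycogen phosphorylase was measured through its muscle and brain isozymes, each by 1 probe set. Pygm, the muscle isozyme, had 18993, 14244 and 15874 in WT and 15117, 16291 and 14193 in Glut1-TG hearts. The groups overlapped, with -0.10 on the log2 scale (95% confidence interval -0.35 to 0.15, limma adjusted p = 0.78), which was 0.013 without WT replicate 1 and above 0 after either other scaling. Pygb, the brain isozyme that heart also makes, had 14661, 14560 and 17402 in WT and 14381, 17482 and 17768 in Glut1-TG hearts. These overlap too, and the difference was 0.09 on the log2 scale (95% confidence interval -0.15 to 0.33, limma adjusted p = 0.80), with 0.20 after quantile normalization and 0.27 after centring on cardiomyocyte markers (limma adjusted p = 0.43 and 0.24).

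The isozymes were compared through the ratio of their signals within each array. The log2 ratio of Pygb to Pygm was -0.07 ± 0.27 in WT and 0.12 ± 0.20 in Glut1-TG hearts (SD, n = 3 each). The groups overlapped, with a difference of 0.19 (exact permutation test, two-sided, p = 0.5, where 0.1 is the smallest possible). The log2 ratio of Gys1 to Pygm, of synthase to phosphorylase, was -3.06, -3.01 and -3.05 in WT and -3.10, -3.38 and -3.33 in Glut1-TG hearts. All Glut1-TG hearts were below all WT hearts, with a mean difference of -0.23 (exact two-sided permutation p = 0.1, the smallest possible).

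Phosphorylase kinase, which activates phosphorylase, was measured through its muscle alpha and gamma subunits. Phka1, the regulatory alpha subunit, had 1377, 1299 and 1927 in WT and 1224, 1559 and 1229 in Glut1-TG hearts. WT replicate 3 was the highest array in 2 of the 3 probe sets, and in the third Glut1-TG replicate 2 was slightly higher. The log2 fold changes of the 3 probe sets were -0.19, -0.38 and 0.03, with limma adjusted p from 0.62 to 0.97 among all probe sets. The first of these was -0.0094 without WT replicate 3 and -0.00020 after centring on cardiomyocyte markers. Phkg1, the catalytic gamma subunit of muscle, was close to the filter. Its signals were 211, 162 and 204 in WT and 187, 351 and 145 in Glut1-TG hearts. The difference was 0.15 on the log2 scale, with a 95% confidence interval from -0.69 to 0.98 (limma adjusted p = 0.92), and -0.22 without Glut1-TG replicate 2. Its other probe set did not pass the filter and ran from 32.8 to 274, with Glut1-TG replicate 2 highest in both.

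Ppp1r3c encodes the targeting subunit PTG, which brings protein phosphatase 1 to glycogen and favours synthesis. Its signals were 8726, 8046 and 9528 in WT and 8716, 13413 and 8571 in Glut1-TG hearts. Glut1-TG replicate 2 was the highest array in both probe sets, at 13413 and 4856, and the other two Glut1-TG hearts lay within the WT range in each. The difference was 0.19 on the log2 scale (SE 0.16, limma adjusted p = 0.68) and -0.017 without Glut1-TG replicate 2.

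**Figure D4:**
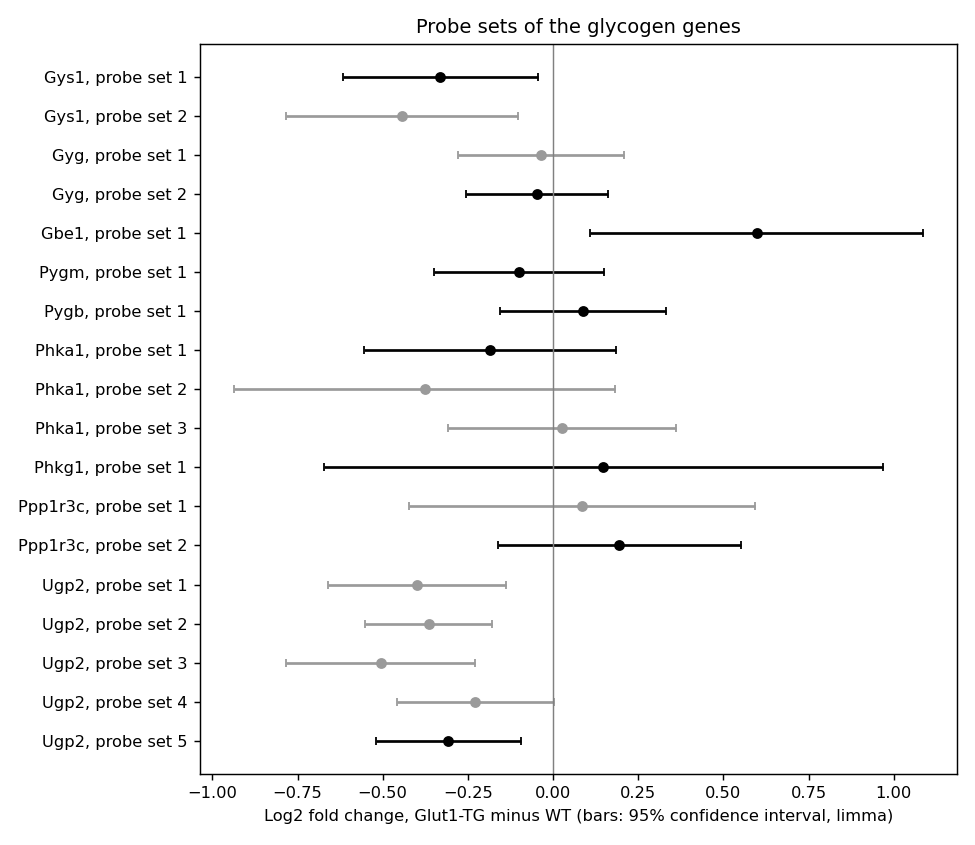
The horizontal axis gives the log2 fold change, Glut1-TG against WT, of the 18 of 19 probe sets that passed the filter (rows), with bars for the 95% confidence interval from limma. Black points are the probe sets used for the gene and grey points the others; the 5 probe sets of Ugp2 and 2 of Gys1 lie to the left of 0 and that of Gbe1 to the right, and none passed limma.

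Over the members' probe sets, 18 of 19 passed the filter. At an unadjusted limma p under 0.05, 6 were lower (4 of Ugp2 and 2 of Gys1), against 5.76% of all probe sets tested, and 1 was higher, that of Gbe1; both directions together take in 10.7% of all probe sets. After centring on cardiomyocyte markers 1 was lower (of Ugp2) and 3 were higher, against 1.33% and 14.1% of all probe sets. After quantile normalization 5 were lower and 2 higher, against 5.60% and 4.98% of all probe sets. With adjustment over all probe sets 0 passed, against 0.601%.

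The rest of the pathway was read from 24 other genes of glycogen metabolism with a probe set of their own, of which 20 were tested. None of the 20 passed limma in either direction. At an unadjusted p under 0.05, 1 was lower and 0 were higher, against 6.05% and 5.60% of all genes. The median log2 fold change was 0.0016, with 11 above 0 and 9 below, where 47.6% of all genes were below. After centring on cardiomyocyte markers, 1 was lower and 3 were higher (Ppp1r3a, Phka2 and Ppp1cb), against 1.42% and 16.1% of all genes. The median was then 0.19, against 0.20 for all genes. Gys2, the liver synthase, Stbd1 and the phosphatase targeting genes Ppp1r3e and Ppp1r3g lay under the filter.

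Hk2, the hexokinase that phosphorylates glucose in insulin-sensitive muscle, was the gene past the unadjusted threshold. Its signals were 10287, 9538 and 9503 in WT and 7587, 7791 and 6453 in Glut1-TG hearts. The groups were well apart, and the mean was 25.6% lower in Glut1-TG hearts. On the log2 scale the difference was -0.43 (SE 0.09, 95% confidence interval -0.64 to -0.22), with a limma adjusted p of 0.080 (0.059 to 0.37 over the alternatives). Hk2 passed the study's thresholds as applied here (unadjusted p = 0.0098 by the methods' t-test, and 0.1 by the exact two-sided permutation test). Its log2 fold change was -0.24 after centring on the cardiomyocyte markers. Hk1, the other hexokinase among the genes listed here, had 0.04 (limma adjusted p = 0.91). A further probe set of Hk1 had -0.11 (limma adjusted p = 0.75 among all probe sets).

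Among the other genes, Ppp1r3a, the targeting subunit of striated muscle, had the largest positive fold change. Its signals were 269, 397 and 273 in WT and 624, 476 and 323 in Glut1-TG hearts, with overlap, a difference of 0.57 on the log2 scale (SE 0.28, limma adjusted p = 0.47). Next by p came Phka2 and Ppp1cb upward (log2 fold changes 0.16 and 0.10) and Gaa, the lysosomal glucosidase, and Ppp1cc downward (-0.17 and -0.10), with limma adjusted p from 0.64 to 0.79. The further probe sets of Gaa and Ppp1cc had differences above 0 (0.13 and 0.26) that did not pass. Gsk3a and Gsk3b, the kinases that inhibit glycogen synthase, had log2 fold changes of 0.0023 and 0.0028, although further Gsk3b probe sets ran from -1.15 to 1.10 without passing. Pgm1, which links glucose 1-phosphate and glucose 6-phosphate, had -0.05 (limma adjusted p = 0.90).

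**Figure D5:**
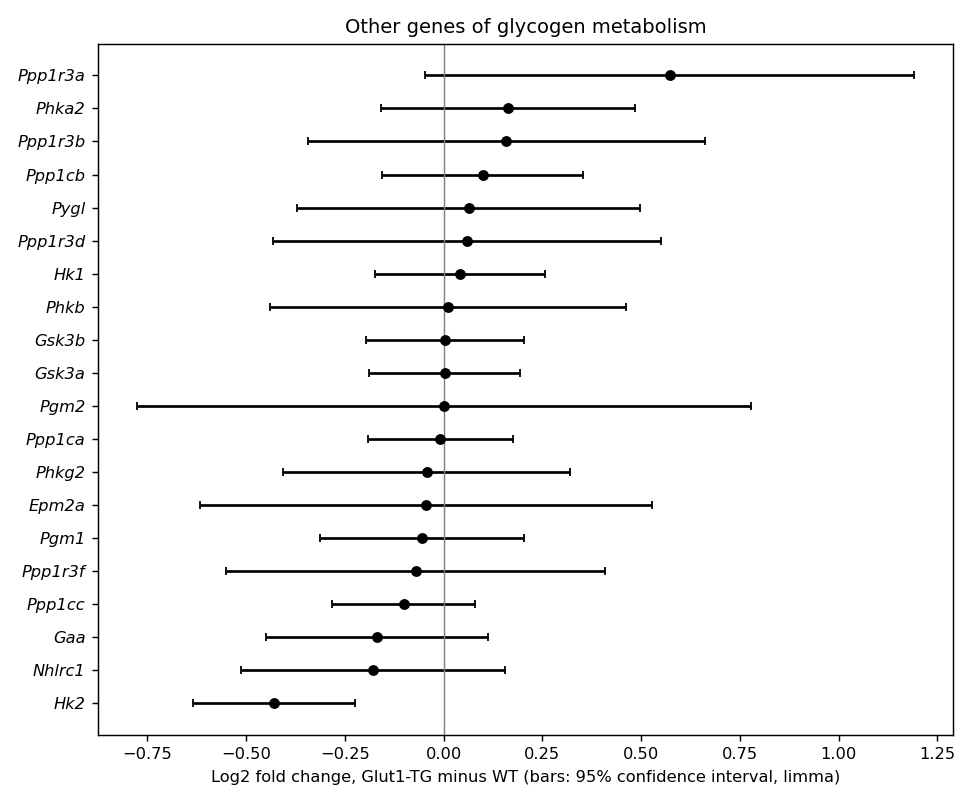
The horizontal axis gives the log2 fold change, Glut1-TG against WT, of the 20 other glycogen genes tested (rows, sorted), with bars for the 95% confidence interval from limma. The interval of Hk2 lies below 0 and the other 19 include 0; none passed limma after adjustment.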

How the data were processed

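Total RNA from left ventricles of WT and Glut1-TG mice (3 samples each) was labelled as biotinylated cRNA and hybridized to an Affymetrix mouse array. The authors processed the scans with GCOS, per the labels, and deposited one linear signal intensity per probe set; its version and settings are not given in the sources used here. The trimmed mean (2% at each end) was 500 in each array, so the values were used as scaled. Of 45101 probe sets, 64 controls were left out, and 932 with several symbols and 9160 with none were not used. Signals under 1, 48 values, were set to 1 before log2. The lowest 40% of single-symbol probe sets by mean log2 signal were left out. Gene symbols came from the platform annotation of GEO.

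Groups were compared in R 4.3.3 with limma 3.58.1 (lmFit, eBayes with an intensity trend), with Benjamini-Hochberg adjustment over 12421 genes or 20967 probe sets and a threshold of 0.05. The members, lists, tests and filter were chosen with earlier results of these data known. All members were named, and of the other genes those past limma and the 3 of lowest p in each direction. Hk1, Gsk3a, Gsk3b, Pgm1, the genes named under another scaling and the promoters were chosen after the values were seen. The alternatives were quantile normalization, centring on cardiomyocyte markers, an offset of 50, no filter, a filter that left out 60%, the mean of a gene's probe sets, each array left out, a block for replicate number, no intensity trend in eBayes and the methods' t-test. Precision is limited by the number of arrays. The fit was tested on simulated data.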

Additional observations from a re-analysis of the deposited data

How the results depend on the processing

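The count of members called by limma was 0 in both directions under every alternative with adjustment, and without adjustment it was 1 higher and 2 lower; for the other glycogen genes it was 1 lower without adjustment, and for the members' probe sets 1 higher and 6 lower. The study's thresholds, as applied here, were passed by 2 members, Gys1 and Ugp2, both lower, when the probe sets of a gene were averaged. The share of all genes was not counted for that setting. Ugp2 and Gys1 were lower and Gbe1 was higher under all 15 alternatives with adjustment. Not all of these could change the sign. The other filters, the replicate block, eBayes without an intensity trend and the methods' t-test keep the reported fold changes of these genes. Averaging the probe sets cannot change Gbe1, which has a single probe set. Only the remaining alternatives test the direction. The lowest limma adjusted p of a member was 0.056, that of Gbe1 without Glut1-TG replicate 1. Values near 0 changed sign without a call: Gyg had 0.033 after quantile normalization and 0.14 after centring on cardiomyocyte markers, and Pygm had 0.018 and 0.086. With 1 array left out, Pygm ran from -0.19 to 0.013 (without WT replicate 1), and Phkg1 from -0.22 and Ppp1r3c from -0.017 (without Glut1-TG replicate 2) to 0.42 and 0.31.

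Over all genes, 35 were higher and 81 lower, and after centring on cardiomyocyte markers 69 and 31. The counts were 20 and 49 with averaged probe sets, 2 and 3 when eBayes had no intensity trend, 1 and 0 by the methods' t-test after adjustment, and 696 and 751 without adjustment. Leaving out 1 array gave 13 to 35 higher and 30 to 65 lower genes. With the replicate number as a block 21 and 47 genes passed and no member did. Whether the replicate numbers pair the hearts was not settled. Deviations of same-numbered arrays correlated at 0.10, -0.02 and 0.08, and 2 of the 3 Glut1-TG arrays correlated best with their own number. The cause of these differences was not tested.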
